A study of Mus musculus with 2 samples.

Results

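The 35 genes described here are transcription factors of the progenitor domains of the spinal neural tube. They were taken by name from a list of patterning and proneural factors of the ventricular zone, and every one of them had a row among the 43346 gene rows of each library. The data are total RNA of the neural tube of mouse embryos of the B6NCrl strain at embryonic day 14.5, with no genetic change or treatment named in the labels. There was 1 group of 2 libraries, each made from 10 ng of RNA with added spike-ins. As the labels have it, replicate 2 came from the single tube of a pup of one pregnant female and replicate 1 from that of a pup of another, although the sex is also given as pooled male and female. With 1 group no contrast between conditions exists, so levels are given for each library and differences between the libraries carry no test.

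In the embryonic spinal cord, sonic hedgehog from the floor plate and BMP and WNT proteins from the roof plate set up a stack of progenitor domains along the ventricle. Each domain is defined by a combination of homeodomain, basic helix-loop-helix (bHLH), zinc finger and PR domain factors, many of which repress the factors of the neighbouring domain. The dorsal domains are called dp1 to dp6 and form the dI interneurons, the ventral ones p0, p1, p2 and p3 form the V interneurons, and pMN forms motor neurons and later oligodendrocyte precursors. Proneural bHLH factors are expressed for a short time as a progenitor leaves the cell cycle, whereas several patterning factors persist in the ventricular zone after neurogenesis has ended.

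At embryonic day 14.5, 25 of the 35 members (71.4%) were at 1 TPM or more in both libraries, beside 60.8% of all 21474 protein-coding genes. TPM is a transcript level scaled for gene length and depth, with the same sum in each library. Prdm12 passed 1 TPM in replicate 2 alone, and 9 members were below it in both libraries. By place, 8 of 11 roof plate and dorsal factors, 1 of 6 factors of the dorsal interneuron domains, 8 of 9 intermediate factors, 4 of 5 ventral factors and all 4 broad or neurogenic factors were at 1 TPM or more in both libraries. In this grouping the lowest group was the dorsal interneuron factors, of which Gsx1 alone passed. Olig3, which is shared by dp1 to dp3 and was at 1 TPM or more in both libraries, was counted with the roof plate and dorsal factors. In bulk RNA, fewer cells of a domain and less RNA per cell cannot be told apart.

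**Figure D1:**
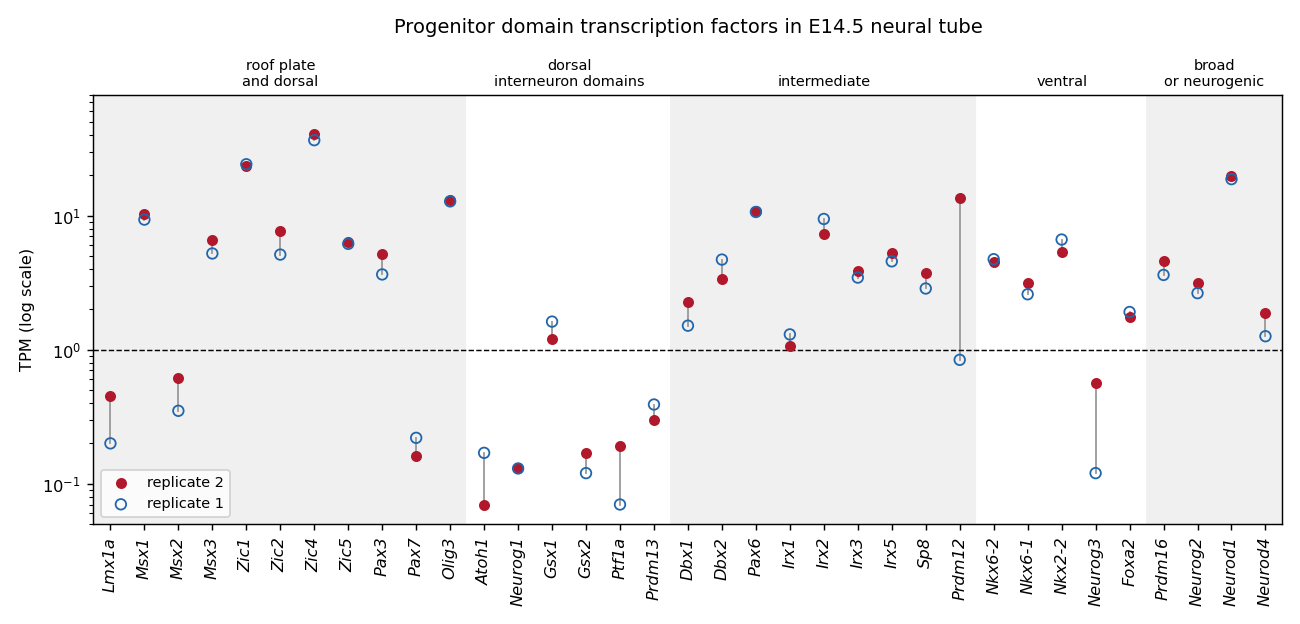
TPM (log axis) of the 35 members, ordered from dorsal to ventral with the broad or neurogenic factors last; filled red points are replicate 2, open blue points replicate 1, and the dashed line marks 1 TPM. The 5 pairs of points below the line in the dorsal interneuron block are Atoh1, Neurog1, Gsx2, Ptf1a and Prdm13, and Prdm12 is the member with the widest gap between the libraries.

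As whole-series facts, expected counts over gene rows summed to 25428747 in replicate 2 and 32255363 in replicate 1. The tissue label was checked against marker lists. All 7 neural progenitor markers and all 5 neuron markers were at 1 TPM or more in both libraries, summing to 2621 and 2993 TPM in replicate 2 and to 2404 and 3158 TPM in replicate 1. Fabp7 alone held 1812 TPM of the progenitor sum in replicate 2 and 1772 TPM in replicate 1. The 5 forebrain and midbrain markers summed to 0.62 TPM in replicate 2 and 0.13 TPM in replicate 1, with Emx2 at 0 in both. Of the 4 hindbrain markers 2 were at 1 TPM or more in both libraries, Gbx2 at 21.14 TPM in replicate 2 and 24.80 TPM in replicate 1 and Phox2a at a lower level. The 5 skeletal muscle markers summed to 18.9 TPM in replicate 2 and 36.2 TPM in replicate 1. The libraries stood apart in tissue next to the cord. The 8 markers of meninges and fibroblasts summed to 1026 TPM in replicate 2 and 46.0 TPM in replicate 1, and the 7 markers of sensory ganglion neurons to 157 TPM in replicate 2 and 24.5 TPM in replicate 1. Calca alone made up 16.15 TPM of the sensory ganglion sum in replicate 2 and 22.45 TPM in replicate 1. The 5 markers of dividing cells summed to 166 TPM in replicate 2 and 136 TPM in replicate 1.

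Zic4 and Zic1 were the highest members, and Zic2 and Zic5 lay lower in the list. The Zic zinc finger factors keep progenitors of the dorsal tube dividing. Zic4 was at 40.86 TPM in replicate 2 and 36.54 TPM in replicate 1, which is 38.7 ± 3.05 TPM (SD, n = 2). Zic1 was at 23.47 TPM in replicate 2 and 24.16 TPM in replicate 1, or 23.8 ± 0.488 TPM. Zic2 was at 7.64 TPM in replicate 2 and 5.12 TPM in replicate 1, and Zic5 at 6.35 TPM in replicate 2 and 6.16 TPM in replicate 1. The 4 Zic members together held 36.8% of the summed TPM of the 35 members in replicate 2 and 38.3% in replicate 1. The ratio of replicate 2 to replicate 1 from scaled counts was 0.910 for Zic1, with an exact 95% counting interval of 0.858 to 0.965. It was 1.08 for Zic4, with an interval of 1.01 to 1.15, and the part of meningeal tissue in the Zic levels was not tested.

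Zic1 and Zic4 lie head to head on chromosome 9, with RefSeq starts 3204 bases apart and annotated genes that overlap by 3398 bases (GENCODE, GRCm38). The TPM of Zic4 was 1.74 times that of Zic1 in replicate 2 and 1.51 times in replicate 1. The 250 bases before the RefSeq start of each are shown because the pair is the highest of the members and the windows differ in base composition. They come from RefSeq (GRCm38.p6) and run 5′ to 3′ on the strand of the gene, with E-box motifs (CANNTG, the core that bHLH factors bind) in capitals. The Zic4 window is chr9:91368722-91368971 on the plus strand, and the Zic1 window is chr9:91365769-91366018 on the minus strand. GENCODE places the start of Zic4 at 91362413, so the Zic4 window lies inside the gene as GENCODE annotates it. The Zic4 window held 4 CpG dinucleotides and 44.4% G and C, and the Zic1 window held 27 and 66%.
Zic4: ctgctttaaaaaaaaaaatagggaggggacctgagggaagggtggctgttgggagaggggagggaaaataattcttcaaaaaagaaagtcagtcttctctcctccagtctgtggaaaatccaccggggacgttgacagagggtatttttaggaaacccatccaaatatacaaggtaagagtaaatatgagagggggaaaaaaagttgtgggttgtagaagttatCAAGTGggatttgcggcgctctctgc
Zic1: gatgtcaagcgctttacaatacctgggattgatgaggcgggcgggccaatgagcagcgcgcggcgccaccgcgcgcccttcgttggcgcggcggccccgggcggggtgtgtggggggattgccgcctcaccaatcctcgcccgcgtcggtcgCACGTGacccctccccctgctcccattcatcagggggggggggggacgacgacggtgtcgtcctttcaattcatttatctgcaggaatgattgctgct

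Of the Msx homeodomain factors, which act downstream of BMP signals in the dorsal tube, Msx1 was at 10.20 TPM in replicate 2 and 9.34 TPM in replicate 1. Msx3, whose expression in the mouse is limited to the dorsal neural tube, was at 6.60 TPM in replicate 2 and 5.22 TPM in replicate 1. Msx2 stayed below 1 TPM, at 0.62 TPM in replicate 2 and 0.35 TPM in replicate 1. The family thus split into a pair above the threshold and 1 gene below it in both libraries. Lmx1a, a LIM homeodomain factor that specifies the roof plate, was at 0.45 TPM in replicate 2 and 0.20 TPM in replicate 1, on 22 and 13 counts. Among signals of the roof plate, Wnt1 was at 3.17 TPM in replicate 2 and 1.49 TPM in replicate 1. Gdf7, also a roof plate signal, was at 0.05 TPM in replicate 2 and 0.34 TPM in replicate 1, and Wnt3a at 0.25 TPM in replicate 2 and 0.09 TPM in replicate 1.

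The paired box factors Pax3 and Pax7 both mark dorsal progenitors, and they were far apart in level. Pax3 was at 5.13 TPM in replicate 2 and 3.64 TPM in replicate 1, from 277 and 258 counts. Pax7 was at 0.16 TPM in replicate 2 and 0.22 TPM in replicate 1, from 14 and 22 counts. Pax6, which is graded through the intermediate and ventral tube, was at 10.90 TPM in replicate 2 and 10.65 TPM in replicate 1, or 10.8 ± 0.177 TPM. Pax6 lay above Pax3, and Pax3 above Pax7, in both libraries, with no overlap. Olig3, the bHLH factor shared by the dp1, dp2 and dp3 domains, was among the highest members at 13.10 TPM in replicate 2 and 12.77 TPM in replicate 1, or 12.9 ± 0.233 TPM.

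The factors that divide the dorsal interneuron domains from each other were low. Atoh1, the proneural factor of dp1, was at 0.07 TPM in replicate 2 and 0.17 TPM in replicate 1, from 2 and 7 counts. Neurog1, the proneural factor of dp2, was at 0.13 TPM in both libraries, from 3 counts in replicate 2 and 4 in replicate 1. Ptf1a, which gives dp4 cells an inhibitory fate, was at 0.19 TPM in replicate 2 and 0.07 TPM in replicate 1, from 4 and 2 counts. Each of these rests on a handful of counts, so neither an order among them nor a difference between the libraries was detectable at this depth. Prdm13, a PR domain factor that acts with Ptf1a, was at 0.30 TPM in replicate 2 and 0.39 TPM in replicate 1. Gsx2, the homeodomain factor of dp3 to dp5, was at 0.17 TPM in replicate 2 and 0.12 TPM in replicate 1. Its relative Gsx1 was the exception, at 1.20 TPM in replicate 2 and 1.62 TPM in replicate 1, from 30 and 55 counts.

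As in the Msx and Pax families, related members lay on either side of 1 TPM for Gsx1 with Gsx2 and for Neurog2 with Neurog1. Neurog2, which drives neurogenesis in ventral and some dorsal domains, was at 3.17 TPM in replicate 2 and 2.64 TPM in replicate 1. Their upstream windows are shown to set the sequence of the detected gene beside that of its relative, with the same source, strand rule and capitals as for the Zic pair. Gsx1 is chr5:147188446-147188695 and Gsx2 chr5:75075351-75075600, both on the plus strand. Neurog2 is chr3:127632886-127633135 on the plus strand and Neurog1 chr13:56252181-56252430 on the minus strand. The 4 windows held 15, 16, 8 and 29 CpG dinucleotides in the order Gsx1, Gsx2, Neurog2 and Neurog1. Gsx1 held 2 E-box motifs and Gsx2 held 1, and these letters are in neither Neurog window.
Gsx1: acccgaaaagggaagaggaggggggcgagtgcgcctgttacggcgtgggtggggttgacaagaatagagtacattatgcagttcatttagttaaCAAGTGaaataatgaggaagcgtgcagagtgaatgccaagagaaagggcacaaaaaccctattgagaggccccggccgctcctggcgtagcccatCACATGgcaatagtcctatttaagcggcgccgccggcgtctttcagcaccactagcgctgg
Gsx2: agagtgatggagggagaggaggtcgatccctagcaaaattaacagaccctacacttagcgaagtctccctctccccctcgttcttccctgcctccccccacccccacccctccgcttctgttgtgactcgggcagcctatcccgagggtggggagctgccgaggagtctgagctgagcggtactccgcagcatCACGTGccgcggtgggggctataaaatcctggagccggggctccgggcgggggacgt
Neurog2: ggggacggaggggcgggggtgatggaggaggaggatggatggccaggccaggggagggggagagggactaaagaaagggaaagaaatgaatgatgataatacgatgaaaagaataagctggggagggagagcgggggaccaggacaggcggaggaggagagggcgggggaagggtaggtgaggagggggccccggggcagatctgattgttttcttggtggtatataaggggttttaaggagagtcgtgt
Neurog1: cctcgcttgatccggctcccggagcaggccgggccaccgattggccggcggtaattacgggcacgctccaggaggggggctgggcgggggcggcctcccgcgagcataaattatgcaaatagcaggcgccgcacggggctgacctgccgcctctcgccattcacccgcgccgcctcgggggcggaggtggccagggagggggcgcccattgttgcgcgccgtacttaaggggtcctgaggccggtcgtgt

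RefSeq windows were found for 31 of the 35 members, with 37 starts, and not for Irx1, Irx5, Pax3 and Zic2. The median window of the members held 14 CpG dinucleotides, beside 10 over the 20150 starts of protein-coding genes and 6 over all 32851 starts. The 27 starts of members at 1 TPM or more in both libraries had a median of 13, and the 9 starts of members below it in both had a median of 16, with ranges of 1 to 32 and 7 to 29 that overlap. The number of CpG dinucleotides therefore does not separate these members. An E-box, searched as CANNTG (a palindrome, so both strands at once), was in 51.4% of the member starts and 62.5% of protein-coding starts. A GC box, searched as GGGCGG on both strands, was in 56.8% of the member starts and 44.1% of protein-coding starts. TATAAA on both strands was in 16.2% and 11.2%, and the homeodomain core TAATTA in 8.11% and 4.27%, of member and protein-coding starts in that order. These are matches of letters and not binding sites.

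Intermediate factors were nearly all present. Of the Iroquois homeodomain factors, of which Irx3 sets the boundary between p2 and pMN, Irx2 was at 7.25 TPM in replicate 2 and 9.44 TPM in replicate 1, and Irx5 at 5.25 TPM in replicate 2 and 4.56 TPM in replicate 1. Irx3 was at 3.88 TPM in replicate 2 and 3.45 TPM in replicate 1, and Irx1 at 1.06 TPM in replicate 2 and 1.30 TPM in replicate 1. Irx1 and Irx2 are neighbours on chromosome 13, and the level of Irx1 was 0.146 times that of Irx2 in replicate 2 and 0.138 times in replicate 1. Irx3 and Irx5, neighbours on chromosome 8, were closer, with 0.739 times in replicate 2 and 0.757 times in replicate 1. Sp8, a zinc finger factor of intermediate progenitors, was at 3.74 TPM in replicate 2 and 2.86 TPM in replicate 1.

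Dbx1 and Dbx2 are the homeodomain factors around the dorsoventral midline, Dbx1 in p0 and Dbx2 from dp6 to p1. Dbx2 was at 3.34 TPM in replicate 2 and 4.70 TPM in replicate 1, and Dbx1 at 2.25 TPM in replicate 2 and 1.51 TPM in replicate 1. Dbx2 was the higher of the pair in both libraries, and their ranges do not overlap. Prdm12, a PR domain factor that is needed for p1 and also marks pain-sensing neurons of the sensory ganglia, was at 13.59 TPM in replicate 2 and 0.84 TPM in replicate 1.

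Ventral factors were at moderate levels. Nkx2-2, the homeodomain factor of p3 and later of oligodendrocyte precursors, was at 5.33 TPM in replicate 2 and 6.63 TPM in replicate 1. Nkx6-2 was at 4.53 TPM in replicate 2 and 4.73 TPM in replicate 1, and Nkx6-1, which spans p2 to p3, at 3.17 TPM in replicate 2 and 2.59 TPM in replicate 1. Foxa2, the forkhead factor of the floor plate, was at 1.76 TPM in replicate 2 and 1.91 TPM in replicate 1. Shh, the signal made by the floor plate, was below the threshold at 0.72 TPM in replicate 2 and 0.55 TPM in replicate 1. Neurog3, a bHLH factor seen in p3, was at 0.56 TPM in replicate 2 and 0.12 TPM in replicate 1, from 12 and 3 counts. It lies wholly within Fam241b on the other strand, which had 418 counts in replicate 2 and 777 in replicate 1, so its few reads are uncertain. Olig2, the pMN factor, and Olig1, both also expressed in oligodendrocyte precursors, were at 5.51 and 40.31 TPM in replicate 2 and at 6.86 and 49.37 TPM in replicate 1.

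Among the broad and neurogenic factors, Neurod1, a bHLH factor of newly formed neurons, was at 19.71 TPM in replicate 2 and 18.71 TPM in replicate 1, or 19.2 ± 0.707 TPM. Neurod4, which is expressed a step earlier in neurons being formed, was at 1.87 TPM in replicate 2 and 1.26 TPM in replicate 1. Prdm16, a PR domain factor of radial progenitors, was at 4.57 TPM in replicate 2 and 3.61 TPM in replicate 1. Neurod1 lay between Zic1 and Olig3, while Prdm16 and Neurog2, described above, lay near the middle of the members. The median member was at 3.74 TPM in replicate 2 and 2.86 TPM in replicate 1, or 3.30 ± 0.622 TPM, beside 5.67 TPM in replicate 2 and 4.88 TPM in replicate 1 for the median protein-coding gene.

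In the order of mean TPM, the members began with Zic4, Zic1, Neurod1, Olig3, Pax6 and Msx1. The first 5 of these 6 each lay above the next, with no overlap between the libraries. From Msx1 downward most neighbours could not be separated: over the whole order, 27 of 34 neighbouring pairs overlapped in range. The 4 highest members held 45.7% of the summed TPM of the list in replicate 2 and 49.1% in replicate 1, and 14 members lay between 2 and 10 TPM in both libraries. Of the 25 members at 1 TPM or more in both libraries, 22 also had a lower credibility bound of at least 1 TPM in the authors' deposited columns, and Gsx1, Irx1 and Neurod4 did not. Of the 9 below it in both, 8 had an upper bound under 1 TPM, and Prdm13 had 1.00 TPM in replicate 2 and 1.03 TPM in replicate 1.

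Set beside markers of the neurons that each domain forms, the members gave different pictures by domain. For dp1, Atoh1 was near 0, while Barhl1 was at 3.86 TPM in replicate 2 and 3.55 TPM in replicate 1 and Lhx9 at 4.04 TPM in replicate 2 and 4.77 TPM in replicate 1. For dp4, Ptf1a and Prdm13 were below 1 TPM, while Lbx1 was at 19.91 TPM in replicate 2 and 18.19 TPM in replicate 1 and Pax2 at 19.60 TPM in replicate 2 and 21.43 TPM in replicate 1. In dp4 the progenitor factor Gsx1 was above 1 TPM, and in dI1 the neuron marker Lhx2 was below it, at 0.68 TPM in replicate 2 and 0.96 TPM in replicate 1. For dp2, Neurog1 was near 0 and Foxd3, the one dI2 marker listed, was at 2.61 TPM in replicate 2 and 1.97 TPM in replicate 1, but Foxd3 is also a gene of Schwann cells. The order was the other way round in several domains. For p0, Dbx1 was at 1.88 ± 0.523 TPM and Evx1 at 0.58 TPM in replicate 2 and 0.55 TPM in replicate 1. For p3, Nkx2-2 was at 5.98 ± 0.919 TPM and Sim1 at 0.99 TPM in replicate 2 and 0.79 TPM in replicate 1. Neurog3, the other p3 factor listed, lay below Sim1 in both libraries. Likewise Dbx2 lay above Dmrt3 and Wt1 of dI6, Nkx6-2 above En1 of V1, and Olig2 above Mnx1 of motor neurons in both libraries. Mnx1 is the only motor neuron marker listed. Prdm12, the other p1 factor listed, lay above En1 in replicate 2 and below it in replicate 1. For p2, Nkx6-1 was present and Foxn4, a short-lived p2 factor, was at 0.05 TPM in replicate 2 and 0.02 TPM in replicate 1. Its neurons' genes were present, with Sox14 at 6.44 TPM in replicate 2 and 7.53 TPM in replicate 1. Over the lists, 9 of 19 progenitor partner genes and 17 of 21 neuron markers were at 1 TPM or more in both libraries. Several of these neuron markers are also expressed by other cells, including Isl1 and Tlx3 in sensory ganglia. Lbx1 and Pax2 are not limited to dI4, nor is Isl1, also a motor neuron gene, limited to dI3. Isl1 was at 70.15 TPM in replicate 2 and 23.63 TPM in replicate 1, above Olig2 in both libraries.

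**Figure D2:**
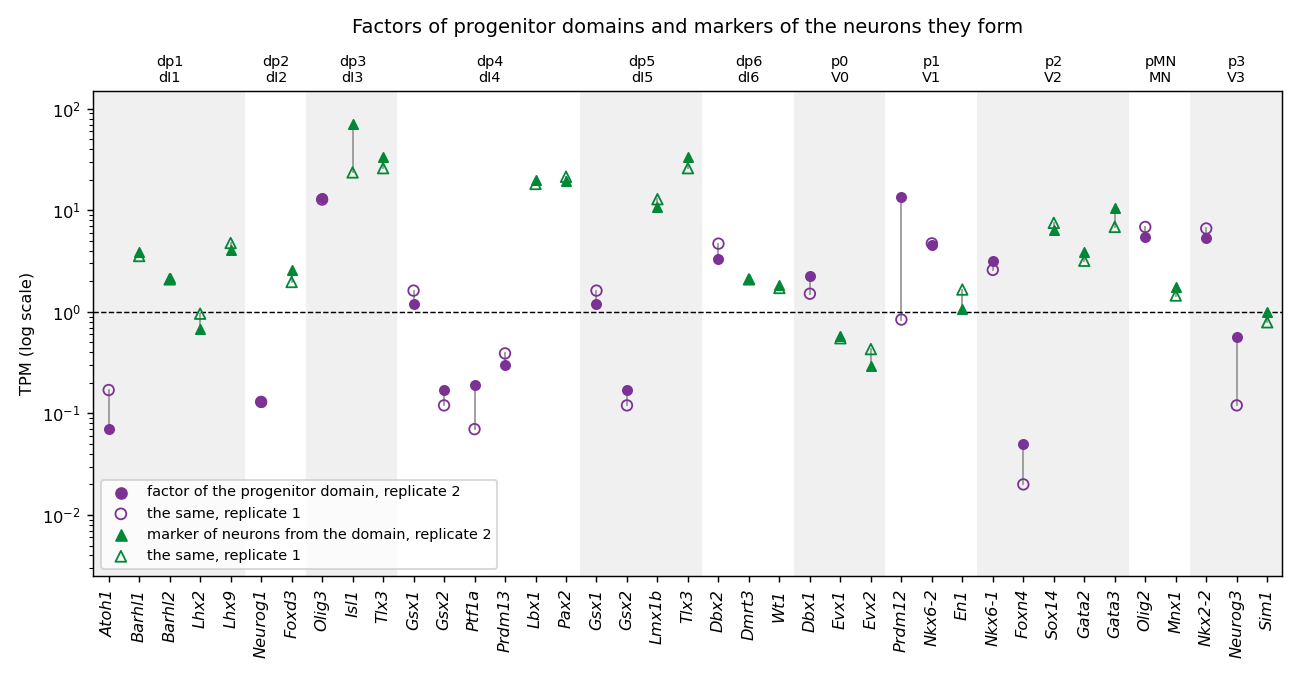
TPM (log axis) of progenitor factors (circles) and of markers of the neurons formed (triangles), by domain from dorsal to ventral with the progenitor domain written above its neurons (MN, motor neurons); filled symbols are replicate 2, open symbols replicate 1, and the dashed line marks 1 TPM. Gsx1, Gsx2 and Tlx3 appear in 2 domains each. Atoh1, Neurog1, Ptf1a, Prdm13, Gsx2 and Foxn4 lie below the line under neuron markers that lie above it. Dbx1, Nkx2-2 and Olig2 lie above the markers listed here for their neurons. Neurog3 lies below Sim1 of V3, and Prdm12 lies below En1 of V1 in replicate 1 alone.

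By these measures, factors were at 1 TPM or more in both libraries for the broad dorsal progenitors (Zic, Msx1, Msx3, Pax3). The same held for the dp1 to dp3 territory (Olig3), dp4 and dp5 (Gsx1 alone, near the threshold), dp6 to p1 (Dbx2) and p0 (Dbx1). It also held for p1 (Nkx6-2), p2 to p3 (Nkx6-1), p3 (Nkx2-2) and the floor plate (Foxa2, although Shh was below 1 TPM). For pMN, Olig2, a partner gene and not a member, was at 5.51 TPM in replicate 2 and 6.86 TPM in replicate 1. The entry for p1 alone rests on Nkx6-2, whose protein-coding transcript was listed at 0 in replicate 2. Its locus also shares reads with Inpp5a, which held most of them. No member specific to dp1 or dp2 alone passed, and neither did Lmx1a of the roof plate or Pax7. Nkx2-2 and Olig2 are also genes of oligodendrocyte precursors and Neurod1 is a gene of young neurons, so a level in bulk RNA does not show in which cells the RNA lay.

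On counts scaled by TMM library sizes, a mean count of 10 or more was reached by 30 members, and 16 of these lay within 1.2-fold between the libraries, beside 56.1% of all genes. On the log2 scale, the middle ratio of replicate 2 over replicate 1 among them was 0.09, beside -0.01 over all 17623 genes with that mean count. In all, 5 of the 30 were at least 1.5-fold apart, beside 19.2% of all genes. Of these, 4 were higher in replicate 2 (Prdm12, Lmx1a, Prdm16 and Msx2), beside 10.7% of all genes, and Dbx2 was higher in replicate 1, beside 8.53%. The share of members apart was thus close to that of all genes.

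Prdm12 had 483 counts in replicate 2 and 40 in replicate 1, a ratio of 15.1 with an exact 95% counting interval of 11.1 to 21.7. Markers of sensory ganglion neurons moved with it: 6 of 7 were at least 1.5-fold higher in replicate 2, with P2rx3 at 17.97 TPM in replicate 2 and 0.74 TPM in replicate 1 and Avil at 22.11 TPM in replicate 2 and 0.12 TPM in replicate 1. The remaining marker, Calca, went the other way, with a ratio of 0.671. En1, a gene of the V1 neurons that come from p1, was at 1.06 TPM in replicate 2 and 1.66 TPM in replicate 1. The part of sensory ganglion tissue in the Prdm12 value was not tested. The 250 bases before its start, shown because its ratio was the widest of the 30, are chr2:31639787-31640036 on the plus strand (RefSeq, GRCm38.p6). The window held 10 CpG dinucleotides and 61.2% G and C, and CANNTG is not in it.
Prdm12: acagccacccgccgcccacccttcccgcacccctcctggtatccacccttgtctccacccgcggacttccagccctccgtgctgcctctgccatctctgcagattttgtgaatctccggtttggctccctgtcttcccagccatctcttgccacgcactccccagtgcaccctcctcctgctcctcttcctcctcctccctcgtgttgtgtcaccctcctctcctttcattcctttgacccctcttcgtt

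Prdm16 had 354 counts in replicate 2 and 240 in replicate 1, a ratio of 1.87 with an interval of 1.58 to 2.21. Its TPM ratio was smaller, at 1.27, and the gene length the authors deposited was 5277 bases in replicate 2 and 3380 bases in replicate 1. Dbx2 had 168 counts in replicate 2 and 320 in replicate 1, a ratio of 0.665 with an interval of 0.548 to 0.804, which is just past 1.5-fold. With DESeq2 size factors it was just short of 1.5-fold, with a log2 ratio of -0.58, beside -0.59 by TMM. Lmx1a had a ratio of 2.10 with an interval of 1.03 to 4.63, and Msx2 had 1.64 with an interval of 0.826 to 3.41, which includes 1. Smaller differences with an interval that excludes 1 were seen for Zic2 (1.37, interval 1.14 to 1.64), Pax3 (1.36, 1.14 to 1.62) and Nkx2-2 (0.755, 0.592 to 0.958). In total 11 members had an interval that excluded 1, beside 53.5% of all genes. Of these, 8 lay wholly above 1, beside 28% of all genes, and 3 wholly below it, beside 25.5%. The meningeal markers, 8 of 8 at least 1.5-fold higher in replicate 2, moved the same way as Prdm16, Lmx1a and Msx2. So did the markers of dividing cells, of which 4 of 5 had a ratio above 1 and 2 were at least 1.5-fold higher. Their median ratio was 1.39. Of the 7 neural progenitor markers, 5 had a ratio above 1 and 1 was at least 1.5-fold higher in replicate 2. The median ratio of these 7 was 1.31. The part of any of these cells in the values of the members was not tested. Scaled to the spike-ins, all ratios are multiplied by 1.46, which shifts the median log2 ratio of all genes to 0.54. Of the 11 members below 1 by TMM, Dbx2 alone remained below 1, so directions given here are relative to all genes.

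**Figure D3:**
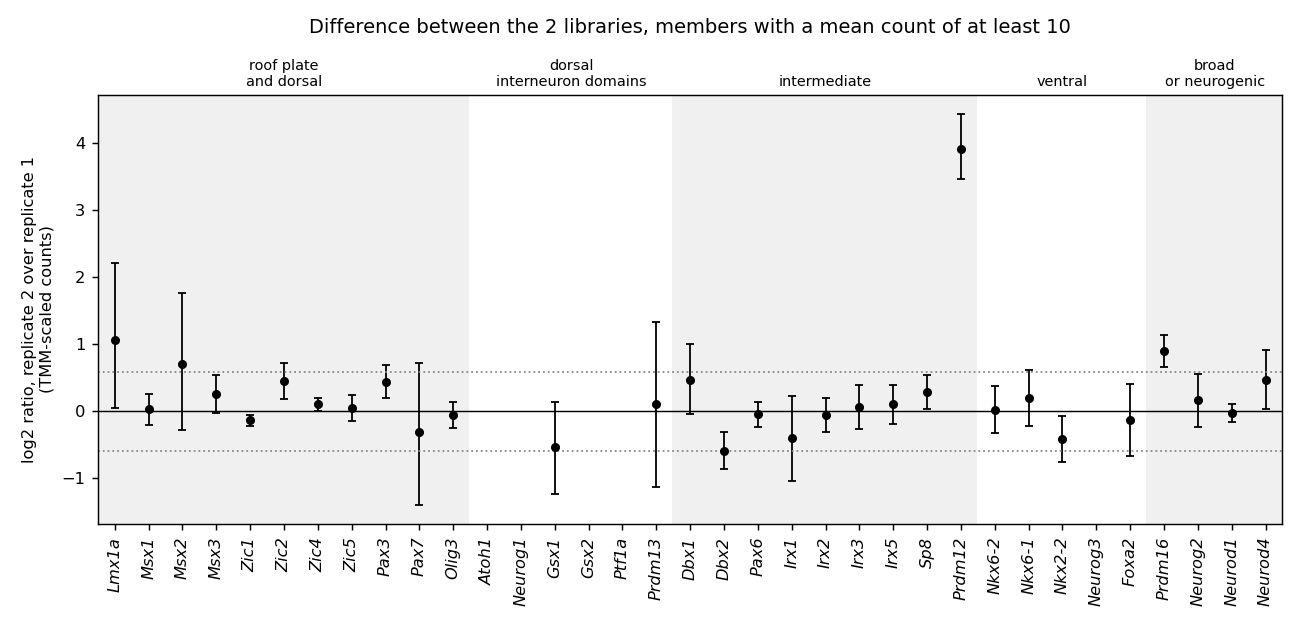
Log2 ratio of replicate 2 over replicate 1 for the 30 members that reach a mean count of 10, from TMM-scaled counts; bars are exact 95% counting intervals, the solid line is no difference and dotted lines are 1.5-fold. Prdm12 stands alone at 3.92, Prdm16 is the next with a narrow interval, and Dbx2 is the one member at the lower line with a narrow interval.

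Reads shared with genes on the other strand touched 7 members, which had fractional expected counts. The strand setting of the counting is not given in the sources used here. In each of the 7, the fractional count and that of an overlapping gene on the opposite strand summed to a whole number, within 0.011, in at least 1 library. Zic4 with Gm37477 summed to 1707 in replicate 2 and 1996 in replicate 1. Prdm12 with the antisense gene Gm13425, which had 113 counts in replicate 2 and 32.5 in replicate 1, summed to 596 in replicate 2 and 73 in replicate 1. Nkx6-2 with Inpp5a summed to 975 in replicate 2 and 1123 in replicate 1, and Inpp5a held most of those reads. Irx3 with Irx3os summed to 165 in replicate 2 and 197 in replicate 1. For Nkx2-2, Neurog3 and Neurod1 this was seen in 1 library each. How many reads belong to each partner is therefore an estimate for these members.

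Transcripts of the 35 members numbered 112, and 19 members had more than 1. By protein-coding transcripts alone, 24 members were at 1 TPM or more in both libraries, and Nkx6-2 was the one lost. Its deposited reads were assigned to Nkx6-2-201, annotated as subject to nonsense-mediated decay, at 4.53 TPM in replicate 2 and 3.11 TPM in replicate 1, and to the protein-coding Nkx6-2-202, listed at 0 in replicate 2 and at 1.62 TPM in replicate 1. Zic4 kept the same split in both libraries, with 56.2% of its TPM in protein-coding transcripts in replicate 2 and 56.1% in replicate 1. Prdm16 did not, with 58.0% in replicate 2 and 33.5% in replicate 1. The short noncoding Prdm16-211, 851 bases long, held 14.6% of its TPM from 7.52 counts in replicate 2 and 49.7% from 27.4 counts in replicate 1. The 8601-base Prdm16-206, which is protein-coding, was at 2.12 TPM in replicate 2 and 0.80 TPM in replicate 1.

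**Figure D4:**
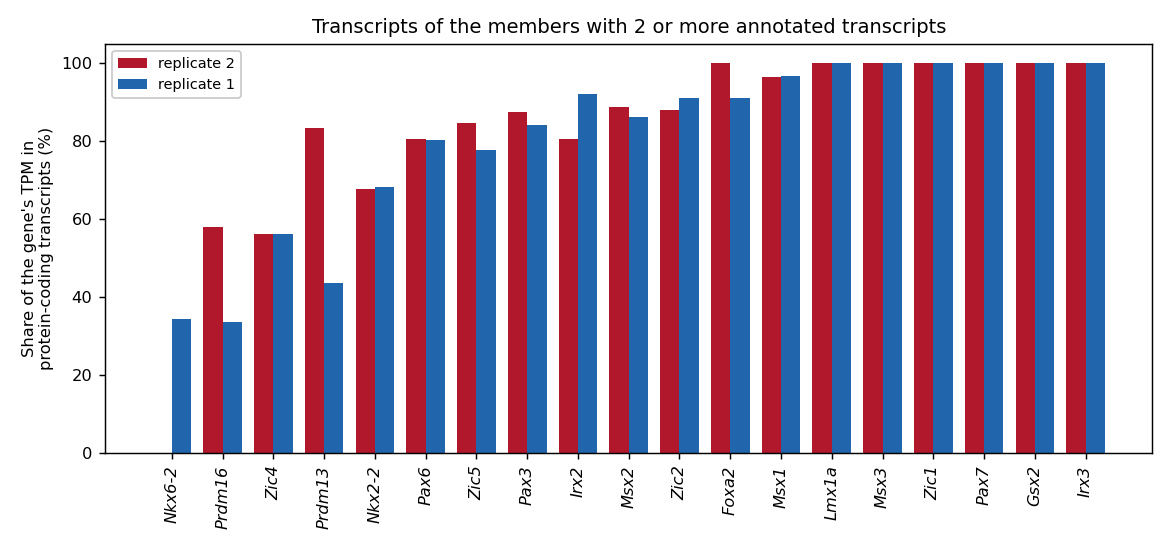
Share of the gene's TPM in protein-coding transcripts (percent) for the 19 members with more than 1 annotated transcript; red bars on the left are replicate 2 and blue bars on the right replicate 1, ordered by the mean of the libraries. Nkx6-2 has no bar in replicate 2, where its coding transcript was listed at 0, and Zic4 is near 56% in both libraries.

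Pax6 had 26 transcripts, of which 9 carry the alternative exon 5a of 42 bases (chromosome 2, 105684751 to 105684792, GRCm38), which lies in the paired domain and changes its DNA binding. Transcripts with that exon held 28.7% of the TPM of Pax6 in replicate 2 and 23.8% in replicate 1, or 3.13 TPM in replicate 2 and 2.54 TPM in replicate 1. The gene total was nearly the same in both libraries, whereas single transcripts were not. Pax6-225, which has the exon, held 25.6% in replicate 2 and 7.22% in replicate 1, and Pax6-202, without it, 18.1% in replicate 2 and 35.8% in replicate 1. Irx2 was alike in this: the 559-base Irx2-205 held 5.55% from 2.77 counts in replicate 2 and 41.0% from 36.0 counts in replicate 1. Of 13 members with more than 1 transcript at a mean share of 10% or more, 9 had the same leading transcript in both libraries, and Gsx2, Msx3, Pax6 and Prdm16 did not. For Gsx2 this rests on 4 counts in replicate 2 and 3 in replicate 1, and in replicate 2 both Msx3 transcripts were at 3.30 TPM.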

How the data were processed

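Per the labels, RNA was extracted with mirVana and the linked general protocol carries the name Smart-seq. The assembly (mm10) and annotation (GENCODE mouse release 4) are those named in the short texts the authors deposited. Which aligner and quantifier were run, and in which versions, is not given in the sources used here. Per the file headers, the authors deposited un-normalised expected counts, meaning reads estimated for each gene or transcript. Per the file headers, TPM values sum to the same total over all rows in each library, with spike-ins among them, and FPKM values are relative to length and depth. In the deposited transcript files a percent column holds each transcript's part of its gene's TPM. The deposited score columns used are the credibility bounds of TPM.

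Symbols and coordinates came from GENCODE release 21 (GRCm38, which mm10 names) by identifier without version, matching 42462 of 43346 gene rows. Expected counts were rounded to whole numbers. Ratios of replicate 2 to replicate 1 used TMM library sizes (edgeR 4.0.16, R 4.3.3) and a prior count of 0.5, with exact Clopper-Pearson 95% intervals on the pair of counts. Intervals cover counting error only. The ratio step was tested on simulated data. DESeq2 1.42.0 and the spike-ins (2.29% of counts in replicate 2, 3.31% in replicate 1) gave other scalings. Other steps ran in Python 3.11.15 with pandas 2.3.3, NumPy 2.4.6, matplotlib 3.10.9 and SciPy 1.17.1. All 35 members are named, with a set list of partner genes, some of which are counted but not reported here. The members, lists and domain assignments were chosen with earlier results of these data known.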

Additional observations from a re-analysis of the deposited data

How the results depend on the processing

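The number of members at 1 TPM or more in both libraries, 25, ranged from 20 (2 TPM) to 30 (at least 10 counts in both) over the alternatives; protein-coding transcripts alone, an alternative chosen after seeing the data, gave 24, FPKM gave 21, and each library alone gave 26 (replicate 2) and 25 (replicate 1). The number of members at least 1.5-fold apart, 5, was 2 at 2-fold, 17 with spike-in scaling, 3 with deposited TPM, 9 with no filter on counts, 3 at a mean count of at least 100 and 4 with DESeq2 size factors. The median log2 ratio, 0.09, was 0.63 with spike-in scaling, where all genes shifted to 0.54. The median member level, 3.30 TPM, was 1.95 in FPKM and 4.92 TPM over the members at 1 TPM or more in both libraries; each library alone gave 3.74 and 2.86 TPM. No member at least 1.5-fold apart changed direction, but smaller ratios did: of the 30 members, 10 changed sign with spike-in scaling (Zic1 and Nkx2-2 among them, whose intervals had excluded 1), 5 with deposited TPM (Neurod1, Nkx6-2, Olig3, Pax6 and Prdm13) and 0 with DESeq2 size factors. No paired analysis was possible because there is 1 group. Counts of 2 to 22 per library behind the members below 1 TPM limit what can be said of them.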
